A study of Mus musculus with 31 samples.

Results

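Chromatin accessibility is described here at 9 genes that encode TFs of mesenchymal cells, namely Twist1, Twist2, Prrx1, Prrx2, Snai1, Snai2, Zeb1, Zeb2 and Tcf21. They were taken as a fixed list of names, out of 21938 protein-coding genes on chromosomes 1 to 19, X and Y in the GENCODE annotation, and all 9 were found. The data come from 1 ATAC-seq library of the parental NIH-3T3 line, which derives from mouse embryo fibroblasts and here carries no overexpressed TF. The methods describe doxycycline for the cells of this assay in general, and the labels name no treatment for this library. The other 30 samples of the series, which overexpress a TF or contain rtTA3G alone, were not analysed here. ATAC-seq uses the transposase Tn5 to insert adapters into DNA that nucleosomes leave exposed, and the authors deposited the regions where the resulting fragments piled up as a list of 63456 peaks. Each peak has a fold enrichment, the pileup at its summit over the pileup expected locally, with 1 added to both, and a −log10 q. The number of fragments at each summit was solved from these values, with a median of 29 over the list. With 1 library there is no replicate error, so no test was made, and the 95% exact Poisson intervals below cover counting error only, with the expected pileup taken as fixed. Peaks of 1 library are not replicates of each other. Of the 9 genes, 7 had a peak within 1 kb of a TSS, as did 53.7% of all protein-coding genes. In the gene body further away 6 had a peak, beside 33.9% of all protein-coding genes. In all, 127 peaks lay in the 9 genes or within 100 kb of them.

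The 9 genes fall into 4 families. Twist1 and Twist2 encode basic helix-loop-helix (bHLH) proteins, which bind E-box sequences as dimers with ubiquitous bHLH proteins, and Tcf21 encodes another member of that class. Snai1 and Snai2 encode zinc finger repressors of epithelial genes such as that of E-cadherin, and Zeb1 and Zeb2 encode zinc finger and homeodomain proteins that repress many of the same genes. Prrx1 and Prrx2 encode paired-type homeodomain proteins of limb and craniofacial mesenchyme. In the embryo these factors act in mesoderm and neural crest, and in epithelial cells several of them are known to drive the transition to a mesenchymal state. A peak shows that DNA was accessible to Tn5 and is no measure of transcript level.

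As a check of the cell type, 9 of 9 fibroblast markers had a peak within 1 kb of a TSS. Of all protein-coding genes, 53.7% had one. The highest promoter peak of the fibroblast markers ranged in fold enrichment from 3.41 at Thy1, a surface glycoprotein, to 10.52 at Fn1, which encodes fibronectin. Of 9 epithelial markers 2 had such a peak, at a fold enrichment of 3.25 for Krt8, which encodes a keratin, and 5.40 for Grhl2, an epithelial TF. The remaining 7, Cdh1 (E-cadherin), Epcam, Krt18, Krt5, Esrp1, Ovol1 and Cldn4, had none.

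A promoter peak was found at 7 of the 9 genes, whereas 53.7% of all protein-coding genes had one. In the order of fold enrichment of the highest promoter peak the genes were Snai2, Twist1, Snai1, Twist2, Zeb2, Zeb1 and Prrx1, and Prrx2 and Tcf21 had none. The first 5 lay between 8.34 and 11.67, and their counting intervals of fold enrichment all overlapped each other. Zeb1 at 4.46 and Prrx1 at 3.65 also overlapped each other. The interval of Prrx1 was below those of the first 5 genes, and the interval of Zeb1 overlapped only that of Zeb2 among these 5. Among protein-coding genes with a promoter peak, the median of this value was 9.86 (quartiles 7.27 and 12.4), so the first 5 genes lay inside the middle range and Zeb1 and Prrx1 below it. A higher value was held by 31.4% of these genes for Snai2, by 93.7% for Zeb1 and by 97.3% for Prrx1. Fragments at the summits of the same peaks gave another order, from 94 at Twist1 to 16 at Zeb1, with 22 at Prrx1. The Zeb2 peak had 34 (23.5 to 47.5), an interval below those of Snai2, Twist1, Snai1 and Twist2, which had 74 to 94. The other Zeb2 promoter peak had 52 (38.8 to 68.2).

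**Figure D1:**
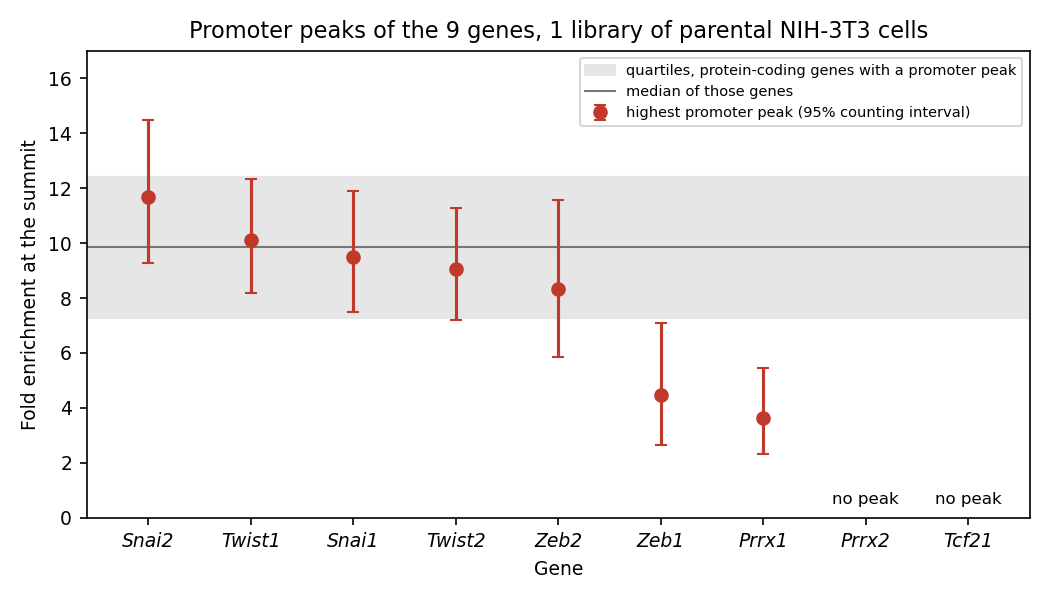
Fold enrichment of the highest peak within 1 kb of a TSS for each gene (points), with 95% Poisson intervals for the fragments at the summit (bars), in 1 library. The grey band and line are the quartiles and median of protein-coding genes with a promoter peak. Snai2 to Zeb2 sit in the band, Zeb1 and Prrx1 below it, and Prrx2 and Tcf21 have no peak.

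Much of the mammalian genome is poor in CpG dinucleotides, except at CpG islands, where many promoters lie. The ratio of observed to expected CpG was counted over the 1000 bp around the gene start. Of the 9 genes, 6 reached 0.6, namely Twist1 (0.87), Twist2 (0.80), Snai1 (0.79), Snai2 (0.70), Zeb1 (0.95) and Zeb2 (0.71). All 6 had a promoter peak, and so did 82.8% of all protein-coding genes at or above this ratio. Below it were Prrx1 and Tcf21, both at 0.47, and Prrx2 at 0.20 at its gene start, and 1 of these 3 had a promoter peak. Of all protein-coding genes below the ratio, 29.1% had one. The gene with the highest ratio at its start, Zeb1, was next to the last in the order of promoter peaks. The Zeb1 peak did not cover that start but began 874 bp from it.

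Of the 4 pairs of paralogues, Snai1 and Snai2 differed most in the number of peaks around them. The Snai2 gene (Slug) on chromosome 16 of mm10 from 14705852 to 14709385 had 1 peak, from 14705183 to 14706048, which covers its TSS. It had 80 fragments at the summit (63.4 to 99.6), at -289 bp from the TSS, a fold enrichment of 11.67 (9.28 to 14.49) at a −log10 q of 57.1. This was the only peak in the gene and within 100 kb to either side. The next peak began 109960 bp past the end of the gene, and on the other side the nearest one ended 211917 bp before its start. The window holds no N bases. Such isolation was rare, since of 11788 protein-coding genes with a promoter peak 86 (0.73%) had no other peak within 100 kb.

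Snai1 on chromosome 2 from 167538195 to 167542814 had a promoter peak of similar height, from 167537893 to 167538419, with 74 fragments (58.1 to 92.9), a fold enrichment of 9.51 (7.50 to 11.91) at a −log10 q of 46.2. The intervals of the paralogues overlapped, with a ratio of 1.23 for Snai2 over Snai1. Around Snai1, however, 22 peaks were found against 1 around Snai2, or 107.5 against 4.91 per Mb. Of these 22, 7 were at TSSs of other genes and 12 in the bodies of other genes, 11 of those in the annotated gene Gm11476 or Gm20431 downstream. No peak had its summit in the body of Snai1 or Snai2, both of them under 5 kb long, and 2.61% of protein-coding genes of such length had a body peak. The strongest neighbour of Snai1 lay between genes, 5.3 kb downstream of the TSS, from 167543060 to 167544163, with 97 fragments and a fold enrichment of 9.18. At 1104 bp it was wider than the promoter peak, which measured 527 bp.

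The summits of both promoter peaks and of the downstream peak, with 50 bp to each side, are shown to compare the sequence where accessibility was highest. They lie at chr2:167538020-167538120, chr16:14705513-14705613 and chr2:167543442-167543542, on the plus strand of mm10 from 5′ to 3′, and overlap no annotated exon. Capitals mark the words searched, on either strand, which were TGACTCA for AP-1 and TAATTA for homeodomain proteins. The E-box words were CAGGTG, known for Snail and Zeb proteins, then CAGCTG, a word of many bHLH dimers, further CATATG, described for Twist dimers, and lastly CAGATG, a bHLH word also.
Snai1 promoter: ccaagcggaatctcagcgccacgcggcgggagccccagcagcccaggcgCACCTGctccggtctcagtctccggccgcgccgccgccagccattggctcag
Snai2 promoter: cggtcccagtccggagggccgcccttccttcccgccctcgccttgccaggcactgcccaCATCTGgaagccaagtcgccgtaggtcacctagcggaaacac
Snai1 downstream: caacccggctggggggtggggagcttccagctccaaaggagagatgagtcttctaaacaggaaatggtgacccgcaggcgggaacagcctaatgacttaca
The Snai1 promoter window holds CACCTG, the reverse complement of CAGGTG. Of all summit windows within 1 kb of a TSS, 3.81% hold this word. The Snai2 window holds CATCTG, the reverse complement of CAGATG, which occurs in 5.36% of such windows, and the downstream window holds none of the 6 words. A match is a description of the sequence and was not tested as a binding site.

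Of the Twist genes, Twist1 on chromosome 12 from 33957671 to 33959829 had 2 peaks within 1 kb of its single TSS. The higher one, from 33956708 to 33958072, had 94 fragments (76.0 to 115.0), a fold enrichment of 10.11 (8.19 to 12.35) at a −log10 q of 60.3. Its summit was in the exon, 31 bp past the TSS. The next, with a fold enrichment of 2.88 and 26 fragments, was also in the exon, and another, at 2.57 and 23 fragments, was in the intron 1.4 kb from the TSS. After these, the gene had no peak for 80068 bp downstream and none for 212648 bp upstream.

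The peak of highest fold enrichment among the 127 lay past this downstream stretch, between Twist1 and Hdac9. It spanned 34040719 to 34041311 on chromosome 12, with its summit 83.4 kb from the Twist1 TSS, and had 115 fragments (94.9 to 138.0), a fold enrichment of 15.92 (13.16 to 19.08) at a −log10 q of 96.4. Of all 63456 peaks, 2.18% had a higher fold enrichment. A neighbour with its summit at 82.6 kb had a fold enrichment of 7.26 and 52 fragments. Hdac9, the next gene on that side, encodes a histone deacetylase, and a weak peak with 12 fragments was in one of its exons. Which gene these sites act on was not measured.

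Twist2 on chromosome 1 from 91801461 to 91848028 had 1 promoter peak, from 91800829 to 91802110, with 79 fragments (62.5 to 98.5), a fold enrichment of 9.06 (7.19 to 11.26) at a −log10 q of 47.4. The antisense gene Gm29100 has a TSS within 1 kb of the same peak, so it cannot be assigned to Twist2 alone. The promoter values of Twist1 and Twist2 had overlapping intervals and a ratio of 1.12. Their surroundings differed in number, with 6 peaks at Twist1 and 17 at Twist2, or 29.7 and 68.9 per Mb. The gene body held 4 of the Twist2 peaks, 1 of them also at the TSS of the noncoding gene Gm29101. The highest of them, from 91816351 to 91817067, was in the intron 15344 bp from the gene start and had 133 fragments (111.4 to 157.6), the most of all 127 peaks, at a fold enrichment of 13.17 (11.04 to 15.59) at a −log10 q of 98.99. It exceeded the Twist2 promoter peak in fold enrichment, with intervals that overlapped slightly.

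The summit windows of the strongest peak outside the promoter of each Twist gene, at chr12:34041055-34041155 and chr1:91816755-91816855 on the plus strand of mm10, are shown because 1 of them holds the AP-1 word and the other none of the 6 words, which are in capitals as above.
Twist1 downstream: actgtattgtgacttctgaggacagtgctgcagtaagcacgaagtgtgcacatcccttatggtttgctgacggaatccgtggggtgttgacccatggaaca
Twist2 intron: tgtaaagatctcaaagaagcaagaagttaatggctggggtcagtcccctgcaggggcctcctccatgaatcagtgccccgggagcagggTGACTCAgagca

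Prrx1 had the promoter peak of lowest fold enrichment among the 7 and Prrx2 had none, whereas 22 and 29 peaks lay in and around them. Prrx1 on chromosome 1 from 163245119 to 163313710, on the minus strand, had 5 annotated TSSs, 4 of them between 163313668 and 163313710. The peak over these 4, from 163313620 to 163313843, had 22 fragments (13.8 to 33.3), a fold enrichment of 3.65 (2.34 to 5.44) at a −log10 q of 5.66. A further peak in the first exon had 16 fragments and a fold enrichment of 2.70. Of all peaks in the list, 86.5% had a higher fold enrichment than the first and 98.9% than the second.

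Away from the promoter, Prrx1 had 20 more peaks, with a median fold enrichment of 7.91, and 7 of them were in the gene body. Of protein-coding genes at least 40 kb long, 72.5% had a body peak, with a median of 2 peaks. The strongest intronic peak, from 163273061 to 163273498, had 75 fragments and a fold enrichment of 13.81 (10.90 to 17.26). The strongest of all lay between genes upstream, at -68.9 kb, from 163382352 to 163382762, with 116 fragments, a fold enrichment of 14.95 (12.37 to 17.90) at a −log10 q of 93.7. Another, 104.3 kb from the gene start and past the end of the gene, from 163209019 to 163209727, reached 12.67 (9.90 to 15.99). The intervals of these 3 lay above that of the promoter. At 12.88, the peak at the TSS of the neighbouring gene Gorab, at -90.2 kb, was above the promoter of Prrx1 too.

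The Prrx1 promoter window is shown beside its strongest distal window because only the former holds the word TAATTA, the core that many homeodomain proteins bind. They are at chr1:163313733-163313833 and chr1:163382523-163382623, on the plus strand of mm10, which is the strand opposite to the gene. The reference masks 73.3% of the promoter window as repeats, and the window is rich in purines.
Prrx1 promoter: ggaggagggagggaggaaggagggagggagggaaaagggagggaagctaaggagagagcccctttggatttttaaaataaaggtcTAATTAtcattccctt
Prrx1 upstream: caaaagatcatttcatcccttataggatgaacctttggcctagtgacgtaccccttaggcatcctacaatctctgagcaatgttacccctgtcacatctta
Of all summit windows within 1 kb of a TSS, 0.504% hold TAATTA.

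Prrx2 on chromosome 2 from 30834972 to 30881251 had 4 annotated TSSs and no peak within 1 kb of any. The CpG ratio was 0.20 at the gene start and 0.66 and 0.78 at the TSSs at 30845059 and 30845444, so a CpG-rich start site of this gene was without a peak. The nearest peak began 2882 bp from the latter, in an intron from 30848326 to 30848611, with 43 fragments, a fold enrichment of 5.74 at a −log10 q of 18.3. A second intronic peak had a fold enrichment of 4.92. In all 29 peaks lay within 100 kb of Prrx2, the highest number of the 9 genes, and 1.02% of protein-coding genes had more. Of these, 9 were at TSSs of other genes and 6 in their bodies, and the strongest, with 125 fragments and a fold enrichment of 11.51, covered a TSS of Ntmt1, a methyltransferase gene. Peaks between genes numbered 12 at Prrx2 and 12 at Prrx1.

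Zeb2 on chromosome 2 from 44983632 to 45117395, on the minus strand, is the gene with the most annotated TSSs, 29, of which 14 had a peak within 1 kb and 8 lay inside one. Its 2 promoter peaks were 7.0 kb and 0.1 kb from the gene start. The outer one, from 45116804 to 45117582, had 34 fragments (23.5 to 47.5), a fold enrichment of 8.34 (5.85 to 11.56) at a −log10 q of 20.97. The inner one, from 45109251 to 45110516, had 52 fragments (38.8 to 68.2), a fold enrichment of 8.17 (6.14 to 10.66) at a −log10 q of 29.85, and lies also within 1 kb of a TSS of the antisense gene Zeb2os. Fold enrichment and −log10 q thus ranked the promoter peaks in opposite order, and their intervals overlapped.

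Beyond the 3′ end of Zeb2, towards Gtdc1, 6 peaks lay between genes, of which 2 exceeded a fold enrichment of 13. They spanned 44956186 to 44956727 with 94 fragments and a fold enrichment of 13.61 (11.03 to 16.62), and 44969220 to 44969587 with 84 fragments and 13.32 (10.65 to 16.45). Another peak of that height was in an intron, from 45019473 to 45020180, with 63 fragments and a fold enrichment of 13.14 (10.15 to 16.76). The strongest of them holds both an AP-1 word and an E-box word in its summit window, which is shown for that reason, at chr2:44956397-44956497 on the plus strand of mm10.
Zeb2 downstream: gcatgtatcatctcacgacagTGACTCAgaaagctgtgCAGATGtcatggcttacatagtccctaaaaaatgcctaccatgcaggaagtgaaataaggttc

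Tcf21 on chromosome 10 from 22817281 to 22820174, on the minus strand, had neither a promoter peak nor a body peak. The nearest peak was 43820 bp from its TSS, between genes, with 14 fragments and a fold enrichment of 3.94. The only other one within 100 kb, at a fold enrichment of 12.95, was at a TSS of Tbpl1, which encodes a relative of the TATA-binding protein. On the upstream side no peak was found for 356247 bp. Tcf21 and Snai2 thus had few peaks around them alike, 2 and 1, but differed at the promoter. There Snai2 had the highest fold enrichment of the 9 genes and Tcf21 no peak.

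Zeb1 on chromosome 18 from 5591860 to 5775467 had 1 promoter peak, from 5592734 to 5593383, with 16 fragments (9.1 to 26.0), a fold enrichment of 4.46 (2.66 to 7.09) at a −log10 q of 5.79. Its 5 outermost TSSs, at a CpG ratio of 0.95 to 0.97, were 822 to 874 bp away from this peak, and 1 of 11 annotated TSSs lay inside it. The noncoding gene Gm10125 has a TSS within 1 kb of the same peak. The ratio of Zeb2 over Zeb1 at the promoter was 1.87, with intervals that overlapped. In the body of Zeb1, 5 intronic peaks reached a fold enrichment of 4.99 to 8.14 with 18 to 30 fragments, so 4 of them had a value above 5. The peak of highest fold enrichment within 100 kb, at 10.33 with 50 fragments, was in an intron of Gm10125. In all 13 peaks were found at Zeb1 and 15 at Zeb2, or 33.9 and 44.9 per Mb.

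**Figure D2:**
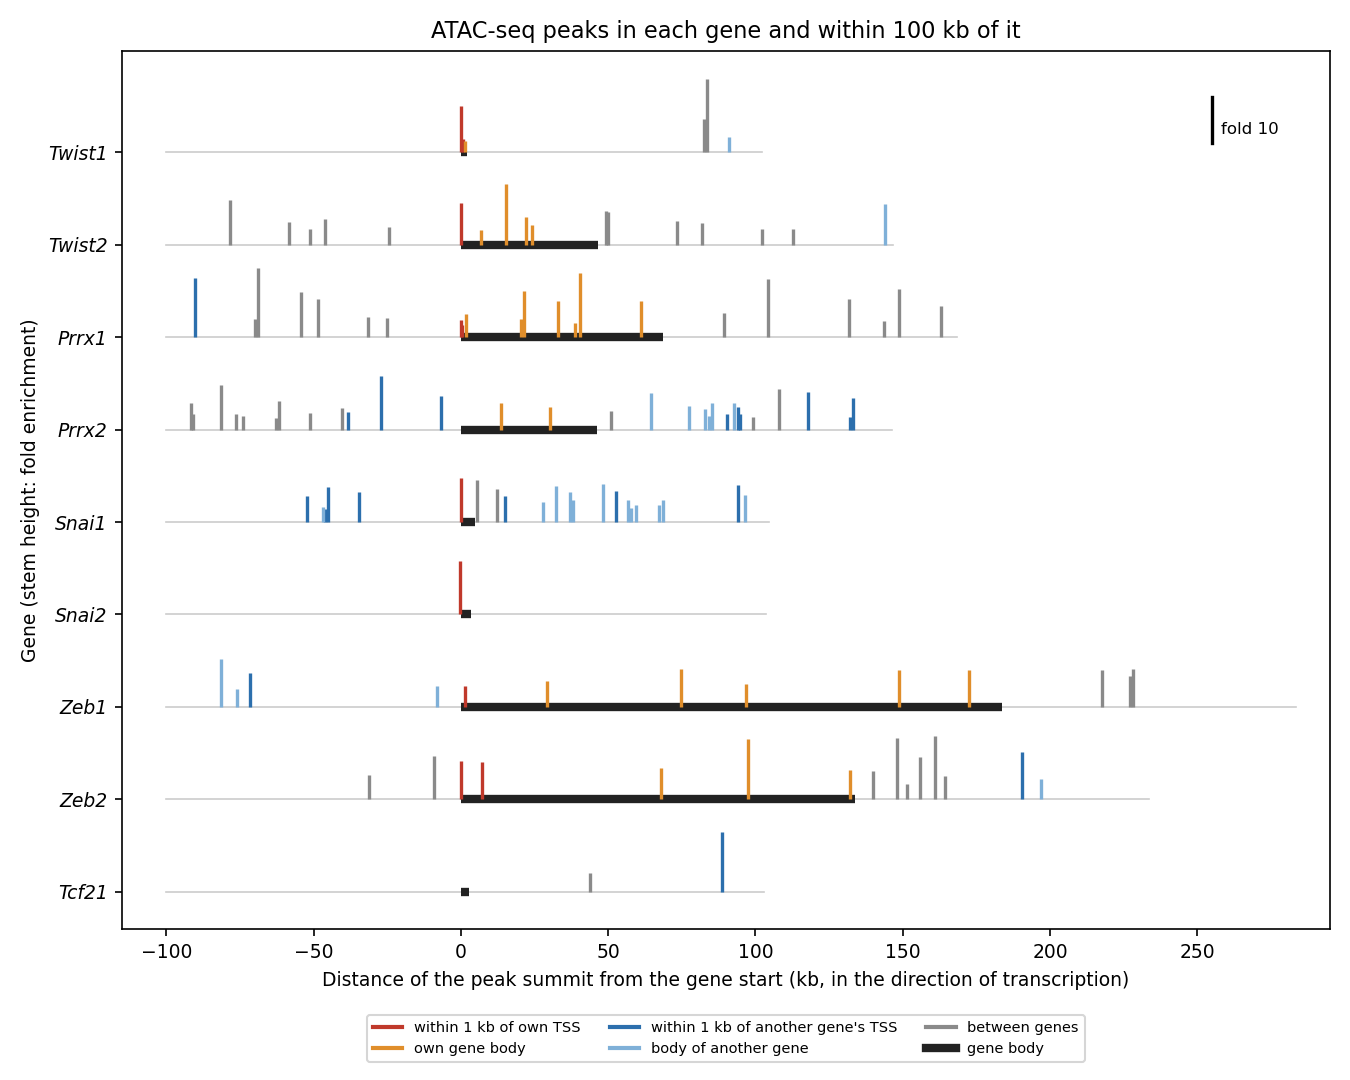
Peaks in each of the 9 genes and within 100 kb, by distance of the summit from the gene start in kb along the direction of transcription. Stems show fold enrichment to the scale at the upper right, colours the position of the peak, black bars the gene bodies and grey lines the 100 kb windows. Snai2 has 1 stem, at its promoter, Tcf21 has 2 away from it, and at Prrx1 many stems are taller than those at its promoter.

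Over all 9 genes, the number of peaks per window ranged from 1 at Snai2 to 29 at Prrx2, with a median of 15. The median over all protein-coding genes was 10 (quartiles 4 and 15), and 6 of the 9 genes were above it. Since long genes have longer windows, peaks per Mb were compared too. They ranged from 4.91 at Snai2 to 117.8 at Prrx2, with 5 of the 9 genes above the median of all protein-coding genes, 39.7. Of protein-coding genes, 84.4% had more peaks than Snai2 and 81.2% more than Tcf21, whereas 5.14% had more than Prrx1 or Snai1, which had 22 each.

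**Figure D3:**
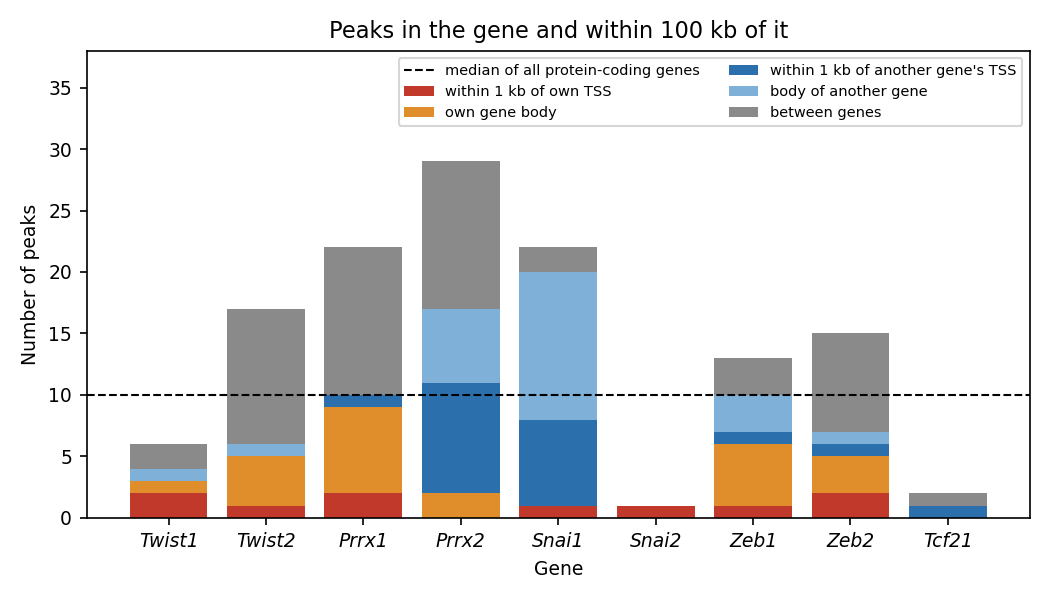
Number of peaks in each gene and within 100 kb of it, stacked by position. The dashed line is the median of all protein-coding genes, 10. Twist1, Snai2 and Tcf21 are below it, and most of the peaks at Snai1 belong to bodies or TSSs of other genes.

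The 127 peaks were 10 at the genes' own TSSs, 22 in their bodies, 20 at TSSs of other genes, 24 in bodies of other genes and 51 between genes. The body peaks came from 6 of the 9 genes, namely Twist1, Twist2, Prrx1, Prrx2, Zeb1 and Zeb2, and 33.9% of protein-coding genes had one. That share depends on gene length. It was 72.5% for protein-coding genes of at least 40 kb, as Twist2, Prrx1, Prrx2, Zeb1 and Zeb2 are. For genes under 5 kb, as are Twist1, Snai1, Snai2 and Tcf21, it was 2.61%. The body peak of Twist1 was weak, at a fold enrichment of 2.57, and began 1131 bp from the TSS, just past the limit of 1 kb. The median fold enrichment was 8.25 at the genes' own TSSs, 6.18 in their bodies and 5.83 between genes. In the whole list it was 8.03 within 1 kb of any TSS and 5.54 further away. The 95 peaks of these loci that were more than 1 kb from any TSS had a median fold enrichment of 5.48. Their median width was 343 bp, against 278 bp for the 47192 such peaks of the whole list. The median number of fragments was 30, against 25 for those 47192 peaks.

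The words searched at the summits of these 95 peaks are given beside their share in the distal peaks of the list. Distal peaks are the 47192 that lie more than 1 kb from any TSS. TGACTCA was found in 28 windows (29.5%, exact 95% binomial interval 20.6% to 39.7%), against 26.4% of 47192 windows in the list. The E-box CAGGTG was found in 6 windows (6.32%, 2.35% to 13.2%) against 3.65%, CAGCTG in 7 (7.37%) against 7.51% and CAGATG in 10 (10.5%) against 11.5%. CATATG and TAATTA were found in 1 window each, against 2.22% and 1.06% of the distal peaks of the list. The intervals of all 6 words include the value of those distal peaks. Among the genes, TGACTCA was most frequent at Zeb2, in 7 of 12 windows (27.7% to 84.8%). Prrx1 had it in 7 of 18 (17.3% to 64.25%) and Twist2 in 1 of 15 (0.169% to 31.95%). Zeb2 was picked as the highest of these genes, and its interval does not allow for that choice. The intervals also treat neighbouring peaks as independent, which was not tested. The 28 peaks with TGACTCA had a median fold enrichment of 7.04 and the 67 without it 4.99. Over all distal peaks of the list these medians were 6.31 and 5.30.

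Related genes, listed by family and by known interaction, were compared by the same measure. Of all protein-coding genes, 53.7% had a promoter peak. Of 9 relatives in the bHLH, Snail and paired homeodomain families, 1 had a promoter peak. This was Shox2, a homeodomain TF of limb and heart, at a fold enrichment of 6.67. The other 8 had none, among them Snai3 of the Snail family and the bHLH genes Scx, Msc, Tcf15, Hand1 and Hand2. Of 14 partners and corepressors, all had one, from 6.02 at Id3, an inhibitor of bHLH dimers, to 14.26 at Tcf4, a ubiquitous bHLH partner of Twist proteins, with a median of 8.51. The 7 genes with a promoter peak among the 9 had a median of 9.06. The miR-200 microRNAs are known to repress Zeb1 and Zeb2, and 0 of their 5 genes, Mir200a, Mir200b, Mir429, Mir200c and Mir141, had a peak within 1 kb of the annotated hairpin. These 5 lie in 2 clusters, and the starts of their primary transcripts were not assessed.

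**Figure D4:**
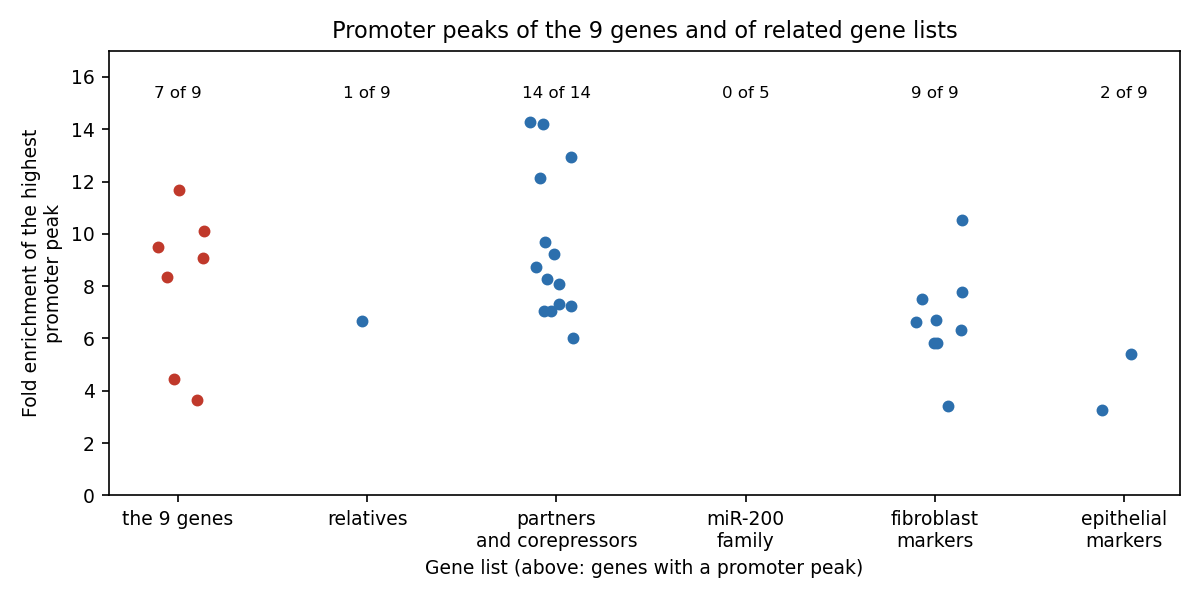
Fold enrichment of the highest promoter peak of each gene that has one, for the 9 genes (red) and for 5 lists of other genes (blue), in 1 library. Numbers above the points give how many genes of each list have a promoter peak. All 14 partners and corepressors and all 9 fibroblast markers have one, against 1 of 9 relatives and 2 of 9 epithelial markers. Of all protein-coding genes, 53.7% have one.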

How the data were processed

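The peak list of a single ATAC-seq library (parental NIH-3T3) was analysed, made from 50000 cells with 0.5 µM Tn5. According to the methods and the submitters' processing notes, paired-end reads were aligned to mm10 with STAR 2.5.3a, keeping unique matches, freed of duplicates with Picard and limited to chromosomes 1 to 19, X and Y, and MACS2 2.1.1.20160309 was run on whole fragments. Removal of peaks over input and blacklisted regions is described for ChIP-seq, and whether it was applied here is not clear. The sources used here mention no correction for the offset of Tn5 cuts. The authors deposited, without a header, a fold enrichment ratio per peak, a −log10 p and a −log10 q from a Poisson test at the summit, and a score derived from the q, which was not used. The total number of reads is unknown from the list.

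The pileup at each summit was solved from fold enrichment and −log10 p, and was within 0.02 of a whole number for 99.997% of peaks. The same step was tested on simulated data. Coordinates are those of mm10, from 1, set beside the GRCm38 sequence and the GENCODE M21 annotation of the same build. A promoter peak lies within 1 kb of the TSS of any annotated transcript of a gene. A body peak has its summit in the gene and is further from all of its TSSs. Windows of 50 bp to each side of the summit were searched on both strands. Sequences are from the RefSeq copy of GRCm38. Computations ran in Python 3.11.15 with pandas 2.3.3, NumPy 2.4.6 and SciPy 1.17.1, and plots in matplotlib 3.10.9.

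All 9 genes were named, with their promoter peaks and strongest other peaks, and list genes where they lacked a peak or were at an end of their list, except that only part of the relatives without a peak are named. Some peaks and intervals without peaks were named after their values were seen. A further relative was left out of that list and of its counts and is not reported here. The genes and lists were chosen with earlier results of these data known. Results were recomputed with stricter limits on q (0.01 and 1e-05) or fold enrichment (5), and with other distances, windows and transcripts.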

Additional observations from a re-analysis of the deposited data

How the results depend on the processing

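No paired analysis was possible because a single library enters the results. The 7 genes with a promoter peak were the same at a q of 0.01 or 1e-05, with peaks that overlap the TSS, with summits within 1 kb and with protein-coding transcripts only. These settings were varied singly, and the Zeb1 TSS that lies inside its peak has no protein-coding transcript. A fold enrichment of at least 5 left 5 of 9, without Zeb1 and Prrx1, where 48.8% of all protein-coding genes had such a peak. A distance of 5 kb gave 8 of 9, with Prrx2, beside 62.8% of all protein-coding genes. Over all settings of the promoter peak that share ranged from 48.7% to 62.8%, around the 53.7% reported. Body peaks were found at 5 genes, without Twist1, at a q of 1e-05 and also where fold enrichment had to reach 5. The share of all protein-coding genes with a body peak, 33.9%, is given without these stricter limits only. The 127 peaks in and around the genes became 75 at a fold enrichment of at least 5, 83 with windows of 50 kb and 214 with windows of 200 kb, which follows from the smaller number of peaks or the other window length. Snai2 had 7 peaks within 200 kb. The share of summit windows with TGACTCA ranged from 26.0% to 39.0%. Other recomputed values were those for single genes, lists, other words and the share of all protein-coding genes with a promoter peak. Of these, 60 were classed as unchanged and 32 as moved, most of the latter peak counts of single genes. The limits were not alike for all values. A rise from 22 to 32 peaks at Prrx1 with windows of 200 kb counted as unchanged. A fall of the share from 53.7% to 52% at a q of 1e-05 counted as moved. The list holds no site with under 10 fragments at its summit, so weaker accessibility at a gene without a peak was not detectable.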
